A study of Homo sapiens with 9 samples.

Results

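H1299 cells are a long-used line grown from a human lung carcinoma of the non-small cell type. The 6 libraries described here compare cells given 0.1 mM melatonin (replicates 1, 2 and 3) with control cells in serum free medium (replicates 1, 2 and 3). They are 6 of the 9 libraries of a series whose title places it in work on circadian rhythm dysfunction. The other group of 3 carries a knockdown label, siCLOCK. All libraries were made from total RNA of the same line, and they were chosen by their treatment labels. The labels name neither a vehicle nor the length of treatment, and they do not say whether the melatonin was given in serum free medium. They call the replicates independent samples but do not name separate cultures, so p-values measure the spread between these samples, which may be technical.

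Melatonin is the indole hormone of the pineal gland. It signals at the cell surface through the G protein-coupled receptors MTNR1A and MTNR1B, and cytochrome P450 enzymes of the CYP1 family hydroxylate it. In cultured cells it has been studied as an antioxidant, as a ligand of the clock system and, at high doses, as an agent that slows proliferation. MTNR1A had 0 to 2 counts in each of the 6 libraries and MTNR1B had 0 in each, so neither receptor could be tested at this depth (a count of 0 allows up to 3 in a library).

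Each library held 15384539 to 19192962 reads assigned to genes. The labelled line was checked by its markers. Vimentin (VIM) had 24216 to 38024 counts and the N-cadherin gene CDH2 768 to 935, while the E-cadherin gene CDH1 had 0 to 2. Markers of other cells were near 0: the summed level of 18 leukocyte genes was 7.31 to 8.41 CPM (read counts scaled to library size) in control and 5.09 to 6.04 CPM in melatonin libraries. In these 6 libraries the sums were at most 4.60 CPM for 10 fibroblast genes, 3.90 CPM for 12 erythroid and platelet genes, 6.94 CPM for 10 endothelial genes and 6.24 CPM for 17 lung epithelial genes. CD3E, HBB, LUM, SFTPD and SCGB1A1 were at 0 in every library. The leukocyte sum was led by ITGAM, which fell (-1.01 ± 0.16, edgeR adjusted p = 2.3e-04).

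The melatonin libraries differed from the controls in more than their treatment. Their share of unmapped reads was 2.30% to 2.34% against 1.22% to 1.36% in control, and their share of gene counts in processed pseudogenes was 0.317% to 0.324% against 0.164% to 0.172%. The library labelled siCLOCK replicate 3, called S3 from here on, had 2.24% and 0.314%, and so stood with the melatonin libraries. CLOCK, the gene named by that label, had 727 counts in S3, close to the 729 to 792 of the controls, whereas the libraries labelled siCLOCK replicates 1 and 2 had 387 and 596. S3 therefore went against its label in this measure. Each change below was set against S3 as well as against control, and both contrasts use the same melatonin libraries. S3 is a single library, whose variation was assumed to be like that of the groups. The treatment and the unmapped share cannot be told apart in the contrast with control.

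Of 13061 protein-coding genes tested, 1471 (11.3%) were higher and 1813 (13.9%) were lower in melatonin than in control at an adjusted p under 0.05 (edgeR quasi-likelihood test, Benjamini-Hochberg over all 16441 genes tested). These shares are the background for the counts given for gene groups below. Together 3284 protein-coding genes (25.1%) were called, and the control and melatonin libraries did not overlap in 6034 (46.2%; 43.4% of all genes tested). Against S3 as well, 244 (1.87%) were higher and 511 (3.91%) were lower, which is 16.6% of the genes called higher and 28.2% of those called lower against control. Over all genes these shares were 1.63% and 3.34%. In the contrast with S3 taken alone 2.29% of protein-coding genes were higher and 4.43% lower, and 2% and 3.85% of all genes. No gene called against control was called in the opposite direction against S3, and 3182 of the 3284 had the same sign in both contrasts. S3 itself lay at least 50% of the way from control to melatonin in 960 of the 3284 and less far in 2324. When any 1 of the 6 libraries was left out, the calls over all genes fell from 1803 to between 1061 and 1538 higher, and from 1987 to between 1372 and 1795 lower, with the smallest loss without control replicate 3. The rises over all genes that passed both contrasts fell from 268 to 98 without melatonin replicate 2, 111 without melatonin replicate 3 and 174 without melatonin replicate 1, and the falls from 549 to 358 without melatonin replicate 2.

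Most changes were small. Of the called protein-coding genes 2709 changed less than 1.5-fold, and 60 rose and 63 fell by 2-fold or more. Highly expressed genes fell more often than they rose. In the fifth of protein-coding genes with the highest mean level (82.9 CPM or more), 23.7% were lower and 11.2% higher, whereas in the fifth with the lowest level 5.97% were lower and 6.54% higher.

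The largest rises that passed both contrasts were those of ID3 and ID2, which encode inhibitors of DNA binding, helix-loop-helix proteins that sequester basic helix-loop-helix transcription factors and are known as direct targets of BMP signalling. ID2 (ENSG00000115738.9, GRCh38 chr2:8678845-8684453) was at 27.1, 26.5 and 25.5 CPM in the control libraries, 27.3 in S3 and 60.7, 64.9 and 67.2 in the melatonin libraries. The 3 melatonin libraries lay above every control, as the choice of the largest rises required, and above S3. The log2 fold change was 1.29 ± 0.07 (SE) against control (edgeR adjusted p = 8.1e-09) and 1.24 against S3 (adjusted p = 7.6e-07). ID3 (ENSG00000117318.8, chr1:23557918-23559794) was at 81.5, 101 and 96.2 CPM in control, 94.8 in S3 and 203.97, 234.35 and 249.89 in melatonin, a log2 fold change of 1.30 ± 0.10 (edgeR adjusted p = 1.4e-07). ID1 rose less, by 0.57 ± 0.08 (adjusted p = 6.0e-05), and was at 137 to 155 CPM in control, 138 in S3 and 195 to 235 in melatonin. ID4 was at 1.75 to 1.85 CPM in control and 3.59 to 3.93 in melatonin, and its contrast with S3 (2.20 CPM) did not pass (edgeR adjusted p = 0.055). All 4 ID genes thus passed against control, and 3 of them against S3.

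The other 10 of the 12 largest rises came from several groups. HIST1H2BD and HIST1H2AC encode core histones, NEU1 and IDUA lysosomal hydrolases, NR4A2 an orphan nuclear receptor, DNAH1 an axonemal dynein heavy chain, OLFM1 the secreted protein olfactomedin 1 and AKAP3 an anchor of protein kinase A. ARMH1 and PGBD2 completed the set. OLFM1 was at 21.5 to 22.5 CPM in control, 24.6 in S3 and 42.7 to 47.4 in melatonin (log2 fold change 1.03 ± 0.09). DNAH1 was at 8.07, 8.15 and 9.26 CPM in control, 9.29 in S3 and 15, 18.5 and 19.7 in melatonin. NR4A2 was at 12.8 to 16 CPM in control, 16.2 in S3 and 26.3 to 29.8 in melatonin, and NR4A3 of the same receptor family also passed both contrasts (0.90 ± 0.18 against control). In each of these genes the 3 melatonin libraries lay above all 3 controls, which the choice of the 12 required, and above S3.

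CYP1A1, the enzyme that hydroxylates melatonin and polycyclic aromatic hydrocarbons and the classical target of the aryl hydrocarbon receptor (AhR), showed the largest fall among genes that passed both contrasts. CYP1A1 (ENSG00000140465.13, chr15:74719542-74725610) was at 8.07, 7.57 and 6.96 CPM in control, 7.71 in S3 and 1.95, 3.25 and 1.81 in melatonin. The log2 fold change was -1.67 ± 0.19 against control (edgeR adjusted p = 4.9e-06) and -1.70 against S3 (adjusted p = 1.1e-04). MPP4, a membrane-associated guanylate kinase, was at 9.60 to 12.7 CPM in control, 11.9 in S3 and 3.62 to 5.04 in melatonin (-1.33 ± 0.14). ADGRG1, an adhesion G protein-coupled receptor, was at 13.8 to 17.4 CPM in control, 18.4 in S3 and 6.39 to 7.38 in melatonin (-1.21 ± 0.12). STRA6, the cell surface receptor for the retinol carrier protein, was at 7.85 to 11.4 CPM in control, 11 in S3 and 4.04 to 4.55 in melatonin (-1.20 ± 0.17). S3 lay within the control range in STRA6, CYP1A1 and MPP4, and above it in ADGRG1.

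The remaining 8 of the 12 largest falls were NWD1, TM4SF18, AC068831.7, DOCK2, CALB2, TGFBI, KRT15 and FOSL1. FOSL1, the AP-1 subunit FRA1, was the most highly expressed, at 464, 523 and 436 CPM in control, 438 in S3 and 210, 254 and 258 in melatonin (-0.98 ± 0.11, edgeR adjusted p = 4.8e-06). CALB2, the calcium-binding protein calretinin, was at 125 to 132 CPM in control, 132 in S3 and 63.6 to 70.4 in melatonin (-0.91 ± 0.09). KRT15, a basal keratin, was at 54.3 to 57.1 CPM in control, 60.0 in S3 and 29.3 to 31.9 in melatonin (-0.89 ± 0.09). AC068831.7 shares 71.9% of its exon bases with VPS33B and PRC1 on the same strand. Reads in shared bases count as ambiguous and stayed out, so its values rest on the other bases.

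**Figure D1:**
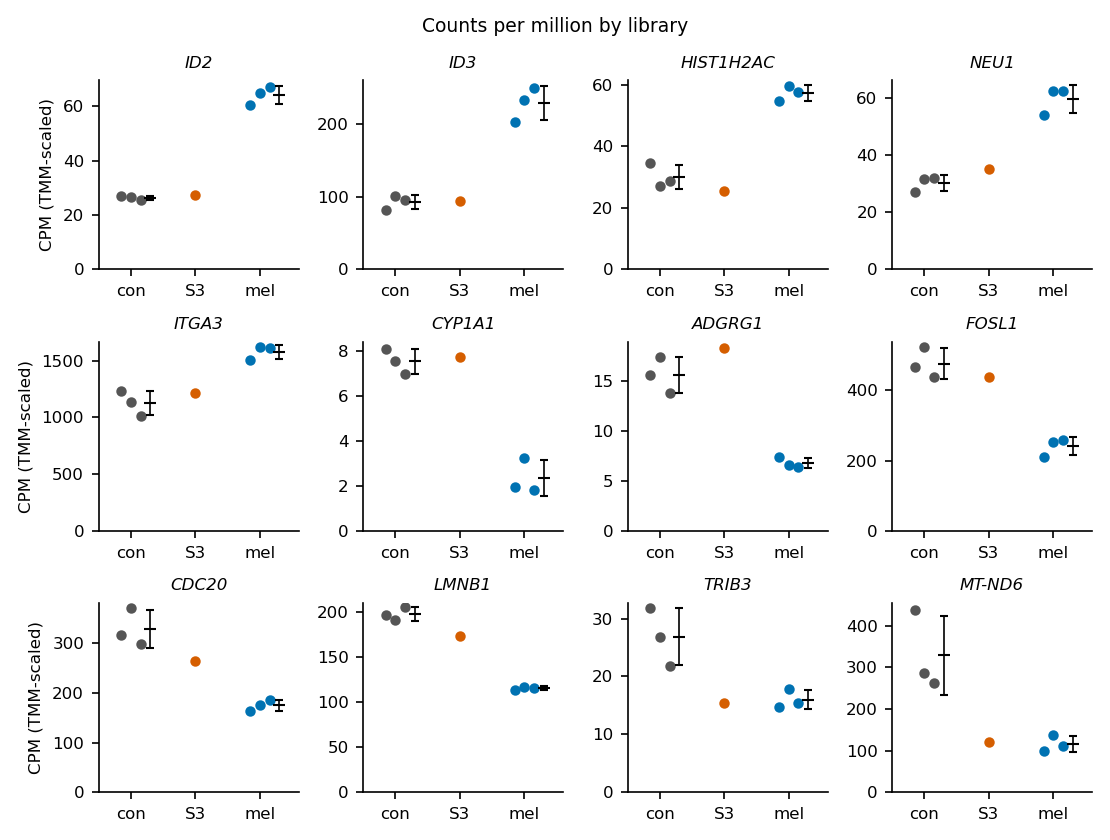
CPM (TMM-scaled, linear axis from 0) of 12 genes in the 3 control libraries (con, grey), the library labelled siCLOCK replicate 3 (S3, orange) and the 3 melatonin libraries (mel, blue); black bars are the mean and SD over 3 libraries. In the first 10 panels S3 lies nearer to the controls than to the melatonin libraries, whereas for TRIB3 (15.4 CPM) and MT-ND6 (121 CPM) it lies among the melatonin libraries.

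In absolute terms the largest gains in CPM that passed both contrasts were those of ITGA3, HSPA5, SQSTM1, ID3 and CALR. ITGA3, the alpha 3 integrin subunit, was at 1232, 1135 and 1015 CPM in control, 1215 in S3 and 1510, 1616 and 1609 in melatonin (0.49 ± 0.08). SQSTM1, the autophagy receptor p62, was at 342 to 390 CPM in control, 364 in S3 and 470 to 541 in melatonin (0.51 ± 0.08). Of its exon bases 39.8% are shared with MRNIP on the opposite strand, and reads there are ambiguous in unstranded counts and stayed out. The rise of CALR, the endoplasmic reticulum (ER) chaperone calreticulin, was small (0.21 ± 0.07, edgeR adjusted p = 0.029) and lost its call in 6 of the alternative settings. The largest losses were those of HSP90AA1, HMGA1, ACTB, HNRNPA2B1 and VIM. HSP90AA1, a cytosolic chaperone, fell from 5902 to 6322 CPM in control to 4820 to 5166 in melatonin, with 6052 in S3 (-0.31 ± 0.06). HMGA1, an architectural chromatin protein, was at 3796 to 4158 CPM in control, 4190 in S3 and 2973 to 3110 in melatonin (-0.36 ± 0.06).

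Genes of DNA replication and cell division formed the most uniform block. Entry into S phase is driven by E2F factors, which act on genes for replication licensing, nucleotide supply and repair. Later in the cycle the B-MYB and FOXM1 factors act, through a motif called the cell cycle genes homology region (CHR), on genes for mitosis. Of 50 genes of origin licensing and the replication fork, all of which passed the filter, 44 fell and 0 rose against control, 28 of them also against S3, with a median log2 fold change of -0.44. Of 26 genes for mitotic kinases, cyclins and the chromosomal passenger complex all 26 fell, 23 of them also against S3, with a median of -0.58 and a range from -0.94 to -0.28. Of 37 centromere and kinetochore genes 32 fell and 0 rose (20 against S3 as well, median -0.50). Of 25 cohesin, condensin and separation genes 17 fell and 0 rose (14 against S3 as well, median -0.46). Over all protein-coding genes the median was 0.00, and 13.9% were called lower. In bulk RNA, fewer cells in a phase of the cycle and less RNA of these genes per cell cannot be told apart.

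The promoters of a few of these genes are shown because shared letters stand close to their start sites. Each line gives the 200 bases before the RefSeq start on GRCh38.p14, read 5′ to 3′ on the strand of the gene. Capitals mark 4 motifs on either strand. The CHR is spelled TTTGAA. The CCAAT box is spelled as it is named. The form of the E2F site searched for is GCGGGAA. The palindromic E-box is spelled CACGTG. No motif overlaps another in the letters shown. CDC20, PLK1 and CENPA stand for mitosis, CDT1 and UHRF1 for S phase, and NEU1 for the lysosomal genes described further on. They were chosen after their values were seen.
CDC20: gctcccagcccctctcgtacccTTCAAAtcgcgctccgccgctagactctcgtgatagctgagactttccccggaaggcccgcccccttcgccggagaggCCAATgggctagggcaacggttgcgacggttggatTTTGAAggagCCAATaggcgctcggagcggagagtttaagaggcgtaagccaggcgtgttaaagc (chr1:43358781-43358980, plus strand)
PLK1: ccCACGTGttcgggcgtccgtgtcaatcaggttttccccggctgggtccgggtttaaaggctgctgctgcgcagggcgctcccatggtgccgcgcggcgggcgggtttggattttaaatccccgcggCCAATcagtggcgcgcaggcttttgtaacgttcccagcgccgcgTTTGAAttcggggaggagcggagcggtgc (chr16:23678689-23678888, plus strand)
CENPA: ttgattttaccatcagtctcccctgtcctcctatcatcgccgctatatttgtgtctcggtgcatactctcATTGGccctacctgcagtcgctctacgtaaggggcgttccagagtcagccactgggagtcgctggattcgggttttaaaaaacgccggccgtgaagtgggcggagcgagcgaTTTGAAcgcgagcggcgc (chr2:26785856-26786055, plus strand)
CDT1: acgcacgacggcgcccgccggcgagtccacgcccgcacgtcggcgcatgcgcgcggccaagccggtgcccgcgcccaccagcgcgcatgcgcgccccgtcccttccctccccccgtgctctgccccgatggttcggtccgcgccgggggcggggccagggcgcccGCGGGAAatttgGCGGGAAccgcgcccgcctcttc (chr16:88803589-88803788, plus strand)
UHRF1: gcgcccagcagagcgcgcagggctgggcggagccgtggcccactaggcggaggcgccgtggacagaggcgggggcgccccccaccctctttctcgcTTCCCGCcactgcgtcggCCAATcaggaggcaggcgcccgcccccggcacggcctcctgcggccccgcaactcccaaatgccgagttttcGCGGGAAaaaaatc (chr19:4909301-4909500, plus strand)
NEU1: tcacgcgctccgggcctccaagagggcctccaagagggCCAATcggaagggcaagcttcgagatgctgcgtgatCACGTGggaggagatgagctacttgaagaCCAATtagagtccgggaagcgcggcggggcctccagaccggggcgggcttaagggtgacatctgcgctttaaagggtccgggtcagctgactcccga (chr6:31862822-31863021, minus strand)
In CDC20 the nearer CHR began 65 bases before the start, between CCAAT boxes that began 100 and 55 bases before it. In PLK1 a CHR began 29 and a CCAAT box 73 bases before the start, and in CENPA they began 18 and 130 bases before it. CDT1 held GCGGGAA at 35 and 23 bases before its start, and UHRF1 held the motif at 104 and 14. The CHR was found in neither of these stretches.

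The same letters were counted in the 300-base windows (250 before to 50 after the start) of 10384 tested protein-coding genes with a RefSeq entry. The CHR was in 9.39% of all windows, in 25.4% of the 406 windows of genes lower than both control and S3, and in 4.23% of the 189 windows of genes higher than both. GCGGGAA was in 10.3%, 20.4% and 7.41%, and CCAAT in 36.5%, 49.0% and 34.9%. The E-box differed less, at 10.1%, 10.3% and 11.6%. Shares differed between lists, with no test of the differences. The CHR was in 52.6% of 19 mitotic kinase and cyclin windows and 46.7% of 30 kinetochore windows, and in 2.27% of 44 licensing and fork windows. GCGGGAA was in 40.9% of the licensing and fork windows, 10.5% of the mitotic kinase and cyclin ones and 23.3% of the kinetochore ones. It was also in 19% of 21 cohesin and condensin windows and 27.8% of 18 windows of the anaphase-promoting complex. Of 28 homologous recombination and Fanconi windows 46.4% held GCGGGAA. The short CCAAT was in 68.4% of the mitotic windows and 56.8% of the licensing and fork windows. For 3049 genes with several starts the first one listed was used. Among genes with a single start the CHR was in 9% of all windows, 30.4% of those lower than both and 3.52% of those higher than both. These shares are descriptions of letters in a window and say nothing of factor binding.

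**Figure D2:**
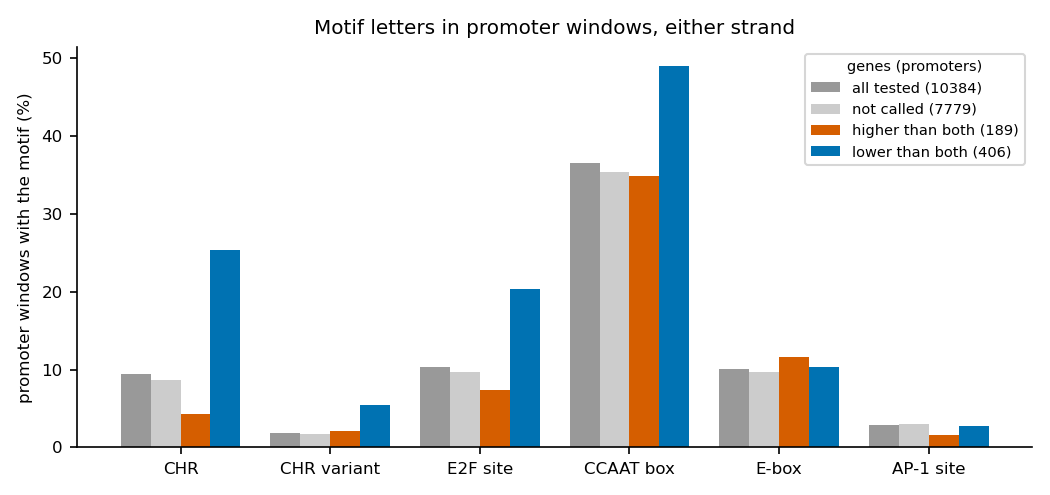
Percentage of 300-base promoter windows (linear axis) that hold each motif on either strand, for all tested protein-coding genes, genes not called, and genes called higher or lower than both control and S3 (number of promoters in parentheses). The bars for genes lower than both stand highest for the CHR (25.4%), the E2F site (20.4%) and CCAAT (49.0%). They also do for the CHR variant TTCGAA (5.42%, against 1.79% of all windows). The E-box bars are of similar height in the groups. The AP-1 bars run from 1.59% (higher than both) to 3.05% (not called).

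Within replication, the MCM helicase, which unwinds DNA at the fork, and its loader fell together. MCM7 was at 685, 751 and 741 CPM in control, 623 in S3 and 414, 451 and 461 in melatonin (-0.72 ± 0.07, edgeR adjusted p = 1.3e-06). MCM5 was at 150 to 166 CPM in control, 121 in S3 and 80.6 to 89.8 in melatonin (-0.87 ± 0.09). CDT1, which loads the helicase, was at 141, 149 and 130 CPM in control, 114 in S3 and 75.0, 88.0 and 84.3 in melatonin (-0.77 ± 0.08). S3 lay below all 3 controls in these genes but above every melatonin library. POLA1, the catalytic subunit of the primase-polymerase, was at 106 to 115 CPM in control, 106 in S3 and 68.3 to 72.7 in melatonin. The adjustment used next subtracts the difference between S3 and siCLOCK replicates 1 and 2. Any difference in knockdown between those libraries is therefore subtracted too, here and wherever this term is used below. With a term for the libraries over 1.8% unmapped reads, which then rests on the single library S3, 21 of the 50 licensing and fork genes were still called lower.

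Nucleotide supply and the factors upstream moved less uniformly. Of 29 nucleotide synthesis genes 16 fell and 3 rose, 9 falls passing against S3 too. The rises were 0 without control replicate 1 or melatonin replicate 1. TYMS, thymidylate synthase, was at 42.1, 46.0 and 43.2 CPM in control, 42.8 in S3 and 24.7, 27.8 and 27.9 in melatonin (-0.71 ± 0.09). Of its exon bases 64.6% are shared with ENOSF1 and TYMSOS on the opposite strand, and reads there are ambiguous in unstranded counts and stayed out. Of 20 genes of the E2F, RB and DREAM regulators 9 fell and 0 rose, 8 also against S3. E2F2 fell by 0.93 ± 0.09 on the log2 scale and MYBL2, which encodes B-MYB, by 0.81 ± 0.07. FOXM1 was at 333, 401 and 372 CPM in control, 323 in S3 and 231, 235 and 235 in melatonin (-0.66 ± 0.07). Of 19 G1 cyclins and CDK inhibitors 9 fell and 0 rose, 3 also against S3. CDK6 fell by 0.41 ± 0.07 and CDKN3 by 0.70 ± 0.08, whereas cyclin D1 (CCND1) was at 403 to 426 CPM in control and 403 to 410 in melatonin, and the inhibitor gene CDKN1A at 82 to 91.3 and 78.0 to 86.3, neither called.

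Among the mitotic genes PLK1, the polo-like kinase, was at 154, 173 and 155 CPM in control, 144 in S3 and 88.9, 97.1 and 95.7 in melatonin (-0.77 ± 0.07, edgeR adjusted p = 3.0e-07). AURKA, the Aurora A kinase, was at 257 to 285 CPM in control, 237 in S3 and 154 to 159 in melatonin (-0.77 ± 0.06). CCNB1, cyclin B1, was at 356, 374 and 351 CPM in control, 334 in S3 and 231, 212 and 222 in melatonin (-0.70 ± 0.06). The groups did not overlap in any of these 3 genes. NUF2 and NDC80, which bind microtubules at the kinetochore, fell by 0.91 ± 0.07 and 0.83 ± 0.06. CENPA, the centromeric histone, was at 45.2, 46.6 and 46.6 CPM in control, 41.6 in S3 and 24.3, 25.7 and 26.3 in melatonin (-0.86 ± 0.07). ESPL1, the separase that opens cohesin, was at 129 to 150 CPM in control, 110 in S3 and 65.4 to 66.3 in melatonin (-1.06 ± 0.07, edgeR adjusted p = 4.3e-08). With the term for the libraries over 1.8% unmapped reads 21 of the 26 mitotic genes, 23 of the 37 kinetochore genes and 14 of the 25 cohesin and condensin genes were called lower.

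Of 19 genes of the anaphase-promoting complex, the ubiquitin ligase that ends mitosis, 8 fell, 1 rose and 10 were not called. UBE2C, its E2 enzyme, was at 199 to 212 CPM in control, 173 in S3 and 102 to 104 in melatonin (-0.99 ± 0.06, edgeR adjusted p = 2.5e-08). CDC20, its mitotic activator, was at 318, 371 and 298 CPM in control, 265 in S3 and 164, 176 and 185 in melatonin (-0.91 ± 0.09). The subunit gene ANAPC16 rose, from 28.6 to 30.2 CPM in control and 27.9 in S3 to 40.7 to 42.4 in melatonin (0.51 ± 0.07). Of the symbol families with 10 or more tested members, the centromere proteins (CENP) had the highest share of falls, 15 of 21. Among 38 kinesins (KIF), motor proteins that move along microtubules, 15 fell and 1 rose, 13 of the falls also against S3. KIF20A, a kinesin of cytokinesis, was at 206, 223 and 210 CPM in control, 190 in S3 and 121, 115 and 118 in melatonin.

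DNA repair genes were counted in a pair of lists. Of 30 tested genes of homologous recombination and the Fanconi pathway (31 listed) 20 fell and 0 rose, 12 also against S3, with a median of -0.39. RAD51AP1, a DNA-binding factor of homologous recombination, was at 70.5, 66.9 and 72.9 CPM in control, 61.2 in S3 and 41.2, 38.4 and 40.0 in melatonin (-0.82 ± 0.07). FANCD2, which is ubiquitylated at crosslinked DNA, fell by 0.69 ± 0.07 and was at 54.0 CPM in S3, against 56.7 to 59.8 in control and 35.4 to 37.6 in melatonin. Of 28 mismatch and excision repair genes 10 fell (35.7%, against 13.9% of protein-coding genes) and 2 rose, and 1 of the falls passed against S3. Without control replicate 2 the falls in that list were 6.

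**Figure D3:**
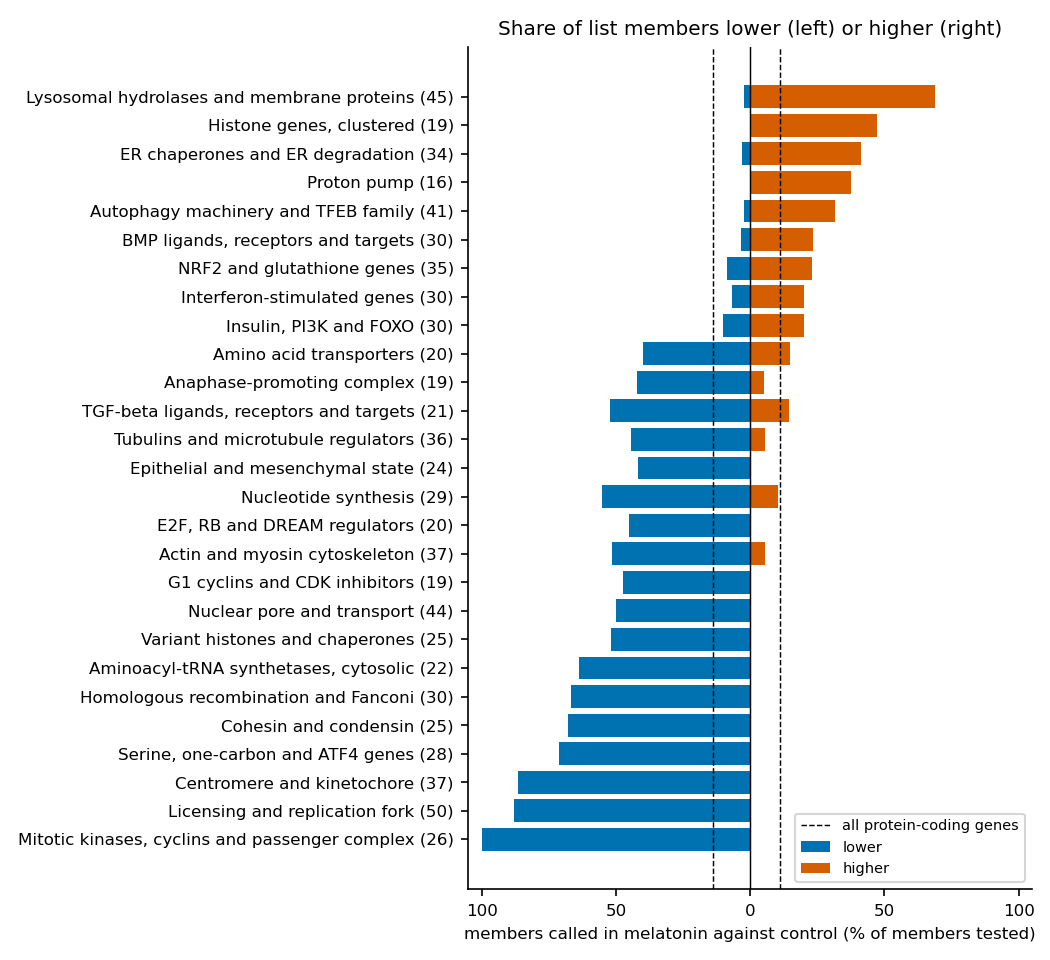
Percentage of the tested members of each gene list (number in parentheses) that were lower (blue, left) or higher (orange, right) in melatonin than in control, on a linear axis, with dashed lines at 13.9% and 11.3% for all protein-coding genes. The lists shown are among those of 15 or more members with the highest shares in either direction; all 26 mitotic kinase, cyclin and passenger genes were lower and 31 of 45 lysosomal genes were higher.

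Histone genes were called higher in the clustered genes and lower in the variants and chaperones. The clustered histone genes, whose main transcripts are made in S phase and lack a poly(A) tail, were higher in 9 and lower in 0 of 19 tested (28 listed), 6 of them also against S3, with a median of 0.40 against control and 0.48 against S3. HIST1H2AC was at 34.6, 27.1 and 28.8 CPM in control, 25.4 in S3 and 54.8, 59.7 and 57.7 in melatonin (0.93 ± 0.09, edgeR adjusted p = 1.3e-06). HIST1H2BD was at 18.4, 14.3 and 15.3 CPM in control, 15 in S3 and 34.7, 32.9 and 36.2 in melatonin (1.11 ± 0.11). These genes are near-identical in sequence to one another, so their separate values are uncertain. In the wider symbol family (HIST) 13 of 30 rose and 0 fell. Without melatonin replicate 3 the rises in the list of 19 were 5. Of 25 genes for replication-independent histones and histone chaperones 13 fell and 0 rose, 5 also against S3. H2AFZ, the variant H2A.Z, was at 235.8 to 258.4 CPM in control, 243 in S3 and 178 to 183 in melatonin (-0.47 ± 0.06), and ANP32E, a chaperone that removes it, fell by 0.74 ± 0.07.

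Among 35 genes of DNA methylation and Polycomb repression 9 fell and 2 rose, with 4 falls and 1 rise also against S3. UHRF1, which brings the maintenance methyltransferase to new DNA, was at 97.3, 103 and 102 CPM in control, 75.4 in S3 and 54.9, 51.5 and 58.6 in melatonin (-0.88 ± 0.07). The Polycomb methyltransferase EZH2 was at 153 to 164 CPM in control, 153 in S3 and 102 to 107 in melatonin (-0.60 ± 0.06). DNMT1, the maintenance enzyme itself, fell by 0.53 ± 0.07 against control, with S3 at 217 CPM between controls (261 to 277) and melatonin (182 to 190), and did not pass against S3 (edgeR adjusted p = 0.12). Without melatonin replicate 2 the falls in this list were 5. Of 42 SWI/SNF, deacetylase and acetyltransferase genes 6 rose and 4 fell, shares of 14.3% and 9.52% near the background, and 3 rose without control replicate 1 or melatonin replicate 2.

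Of 44 tested nuclear pore and transport genes (45 listed) 22 fell, 0 rose and 22 were not called, with 9 of the falls also against S3. LMNB1, lamin B1 of the nuclear lamina, was at 198, 191 and 206 CPM in control, 174 in S3 and 114, 117 and 117 in melatonin (-0.77 ± 0.06, edgeR adjusted p = 1.1e-07). KPNA2, an importin alpha, was at 517 to 549 CPM in control, 494 in S3 and 349 to 366 in melatonin (-0.57 ± 0.06). Of 57 splicing factor genes 22 fell and 2 rose, but 3 falls passed against S3, and the count of falls was 13 or 14 when any 1 of the melatonin libraries was left out. HNRNPA2B1, a nuclear RNA-binding protein, was at 1301, 1277 and 1331 CPM in control, 1119 in S3 and 945, 948 and 923 in melatonin, so that S3 lay between the groups (-0.47 ± 0.06 against control, -0.25 against S3).

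Lysosomal genes rose as a group. Lysosomes break down macromolecules with acid hydrolases, and many of their genes are known to carry E-box motifs bound by TFEB and its relatives. Of 45 tested genes for lysosomal hydrolases and membrane proteins (46 listed) 31 rose and 1 fell against control, and 7 rises also passed against S3. The median was 0.29 against control and 0.19 against S3, and S3 lay 0.10 above the control mean. NEU1, the lysosomal sialidase (ENSG00000204386.10, chr6:31857659-31862906), was at 27.1, 31.7 and 32.0 CPM in control, 35.0 in S3 and 54.2, 62.5 and 62.4 in melatonin (0.98 ± 0.09, edgeR adjusted p = 3.4e-07). With the term for the libraries over 1.8% unmapped reads 14 of the 45 were called higher.

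The proton pump that acidifies the lysosome and the autophagy machinery rose in part. Of 16 tested pump genes 6 rose and 0 fell, 1 of them also against S3. ATP6AP1 was at 90.3 to 97.9 CPM in control, 100.5 in S3 and 115 to 128 in melatonin (0.39 ± 0.07). The rises were 3 when control replicate 2 or melatonin replicate 1 was left out. Of 41 autophagy and TFEB family genes 13 rose and 1 fell, SQSTM1 being the 1 rise that passed against S3. The count fell to between 5 and 7 when control replicate 2 or any of the melatonin libraries was left out. TFEB itself was at 3.20 to 4.83 CPM in control and 3.47 to 4.75 in melatonin and was not called. CACGTG was in 33.3% of the 27 lysosomal windows matched and in 36.4% of the 11 pump windows, against 10.1% of all windows. It was in 11.1% of 36 autophagy and TFEB family windows. Lists in which falls outnumbered rises held it as often, with 33.3% of 45 ribosome biogenesis windows, 35% of 20 windows of the MYC and MAX network and 31.6% of 19 circadian windows. In the NEU1 stretch printed above it began 126 bases before the start.

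Of 34 tested chaperone and degradation genes of the ER 14 rose, 1 fell and 19 were not called, and 2 rises passed against S3. HSPA5, the ER chaperone BiP, was at 711, 687 and 666 CPM in control, 692 in S3 and 912, 908 and 915 in melatonin (0.41 ± 0.06, edgeR adjusted p = 9.5e-05, and 0.0037 against S3). SEL1L, the adaptor of the ubiquitin ligase of ER degradation, was at 79.3 to 86.6 CPM in control, 82.2 in S3 and 96.8 to 105.1 in melatonin (0.31 ± 0.07). The median over the list was 0.17 against control and 0.16 against S3. Leaving out control replicate 1, control replicate 2, melatonin replicate 1 or melatonin replicate 3 brought the rises to 8 or 9. CCAAT was in 83.9% of the 31 ER windows matched, against 36.5% of all windows. Lists in which falls outnumbered rises also held it often, with 81% of 21 cholesterol windows and 68.2% of 22 serine, one-carbon and ATF4 windows.

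**Figure D4:**
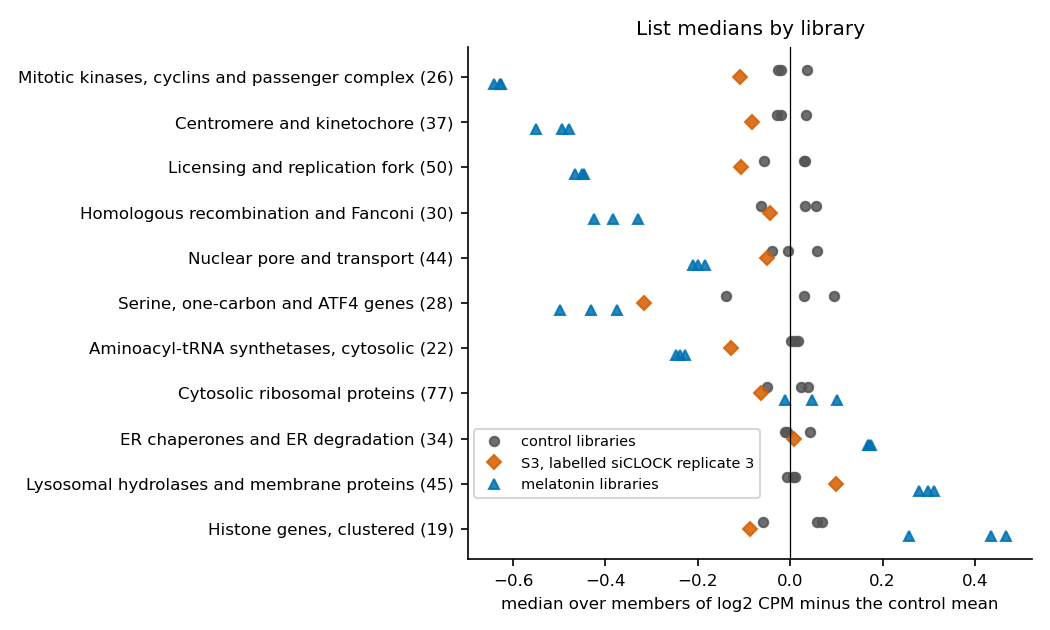
Median over the tested members (number in parentheses) of log2 CPM minus the control mean, on a linear axis, for 11 gene lists in each control library (grey), S3 (orange) and each melatonin library (blue). S3 lies close to the controls for the mitotic and kinetochore lists (-0.11 and -0.08) but at -0.32 for the serine, one-carbon and ATF4 list. In that list the melatonin libraries lie between -0.50 and -0.38. The libraries labelled siCLOCK replicates 1 and 2, not drawn, stood at -0.26 and -0.28 there.

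ATF4 is the transcription factor of the amino acid response, and its known targets include the serine pathway, transporters and tRNA synthetases. Of 28 tested genes of serine, one-carbon and ATF4 targets 20 fell and 0 rose against control, but 2 of them passed against S3. The median was -0.43 against control and -0.17 against S3, and S3 itself stood at -0.32. The libraries labelled siCLOCK replicates 1 and 2, with 1.24% and 1.25% unmapped reads, stood at -0.26 and -0.28. Both carry the knockdown label, and the reason for their values was not tested. The control libraries stood at 0.09, 0.03 and -0.14. PHGDH, the first enzyme of serine synthesis, was at 134, 134 and 112 CPM in control, 91.8 in S3 and 76.0, 80.7 and 78.6 in melatonin (-0.70 ± 0.07; edgeR adjusted p = 0.19 against S3). ATF4 was at 327, 315 and 265 CPM in control, 237 in S3 and 193, 212 and 215 in melatonin (-0.55 ± 0.08; edgeR adjusted p = 0.28 against S3). CHAC1, which degrades glutathione, was at 20.5, 20.5 and 15.4 CPM in control, 10.6 in S3 and 5.93, 8.37 and 5.70 in melatonin. Control replicate 3 was the lowest control in all 3 genes, and the part of the unmapped share in these falls was not tested.

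Of 20 tested amino acid transporter genes 8 fell and 3 rose, 3 falls and 1 rise also against S3. SLC7A5, the leucine transporter LAT1, was at 177, 184 and 140 CPM in control, 117 in S3 and 67.0, 79.8 and 76.8 in melatonin (-1.17 ± 0.10, edgeR adjusted p = 3.7e-07, and 0.0041 against S3). SLC7A11, the cystine transporter, was at 17.3 to 21.8 CPM in control, 11.6 in S3 and 7.14 to 9.45 in melatonin (-1.24 ± 0.12) and did not pass against S3 (edgeR adjusted p = 0.13). Of 22 cytosolic aminoacyl-tRNA synthetase genes 14 fell and 0 rose, and LARS alone passed against S3 (edgeR adjusted p = 0.017). LARS, the leucine enzyme, was at 274 to 287 CPM in control, 274 in S3 and 208 to 224 in melatonin.

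The ribosome itself changed little. Of 77 cytosolic ribosomal protein genes 10 rose and 2 fell, none against S3, with a median of 0.05. Rises were 3 to 6 when control replicate 2 or 3 or melatonin replicate 2 or 3 was left out. RPL23 was at 801 to 876 CPM in control, 993 in S3 and 1092 to 1243 in melatonin, S3 again lying between. Of 57 ribosome biogenesis and RNA polymerase I genes 17 fell and 2 rose, 2 falls also against S3. Their falls were 11 without control replicate 1, melatonin replicate 1 or melatonin replicate 2, and 28 when S3 was left out of the fit. NCL, nucleolin, was at 1138 to 1200 CPM in control, 928 in S3 and 901 to 915 in melatonin, so S3 lay almost at the melatonin level. DDX21, a nucleolar helicase, passed against both, at 196 to 212 CPM in control, 185 in S3 and 140 to 146 in melatonin (-0.53 ± 0.06). Of 45 translation factor genes 14 fell and 3 rose. EIF4EBP1, an inhibitor of cap-dependent translation, was at 150.9, 157.4 and 135 CPM in control, 128 in S3 and 83.9, 94.9 and 95.6 in melatonin (-0.69 ± 0.09). The falls in that list were 9 without control replicate 2 and 8 without melatonin replicate 2. In the MYC and MAX network 7 of 22 genes fell, MYC among them at 141 to 152 CPM in control, 125 in S3 and 111 to 121 in melatonin (edgeR adjusted p = 0.048, and 0.74 against S3), a call that rests close to the threshold. The falls in that network were 11 when S3 was left out of the fit. MXD4, an antagonist of MYC, rose from 72.1 to 78.3 CPM in control and 71.9 in S3 to 114 to 122 in melatonin (0.64 ± 0.07).

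Of 37 tested actin and myosin genes 19 fell and 2 rose, 5 falls also against S3. TAGLN2, transgelin 2, was at 404, 396 and 366 CPM in control, 307 in S3 and 204, 214 and 214 in melatonin (-0.88 ± 0.07, edgeR adjusted p = 8.2e-08). ACTB, beta-actin, often used as a reference gene, was at 3029 to 3370 CPM in control, 3045 in S3 and 2338 to 2505 in melatonin (-0.39 ± 0.07). Of 36 tubulin and microtubule regulator genes 16 fell and 2 rose, 4 falls also against S3. STMN1, the tubulin-sequestering protein stathmin, was at 318 to 343 CPM in control, 295 in S3 and 229 to 240 in melatonin (-0.49 ± 0.06). Of 24 tested genes of epithelial and mesenchymal state 10 fell and 0 rose, 2 also against S3, and 6 fell without control replicate 1. VIM was at 1726 to 2018 CPM in control, 1846 in S3 and 1466 to 1527 in melatonin (-0.30 ± 0.06). Antisense genes share 52.6% of its exon bases.

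Of 36 tested collagen, laminin and matrix genes 11 fell and 5 rose. LAMB3, a chain of laminin 332, was at 78.4 to 84.6 CPM in control, 73.8 in S3 and 47.2 to 50.5 in melatonin (-0.73 ± 0.08), and FBN1, fibrillin 1, rose by 0.34 ± 0.07. The rises were 3 without melatonin replicate 1 or 3. Of 28 tested matrix proteases and inhibitors 5 rose and 4 fell, with a median of 0.09. PLAT, tissue plasminogen activator, was at 16.5 to 19.2 CPM in control, 17.1 in S3 and 11.1 to 11.5 in melatonin (-0.63 ± 0.09) and was the 1 gene of that list to pass against S3. With any 1 of the 6 libraries or S3 left out, 1 to 5 of its genes rose and 3 to 5 fell. Of 23 integrin genes 6 fell and 4 rose. ITGA6 was at 223 to 240 CPM in control, 263 in S3 and 186 to 201 in melatonin, so S3 and melatonin lay on opposite sides of the controls (-0.29 ± 0.06). Without control replicate 1 or melatonin replicate 2 or 3 the falls among integrins were 3, and the rises were 2 without control replicate 1 or 2 or any of the melatonin libraries.

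The TGF-beta and BMP pathways both signal from serine-threonine kinase receptors to SMAD proteins, with SMAD3 on the TGF-beta arm and ID genes as targets of the BMP arm. Of 21 tested TGF-beta ligands, receptors and targets 11 fell and 3 rose, with 4 falls also against S3. SMAD3 was at 327, 317 and 315 CPM in control, 309 in S3 and 220, 228 and 229 in melatonin (-0.50 ± 0.06, edgeR adjusted p = 5.3e-06). PMEPA1, a target and inhibitor of the pathway, was at 129 to 161 CPM in control, 153 in S3 and 94.5 to 97.7 in melatonin (-0.61 ± 0.08). TGFBI, a secreted target, was at 37.5, 30.1 and 21.7 CPM in control, 23.9 in S3 and 12.7, 13.5 and 12.3 in melatonin. Its controls spread widely and S3 lay within them. The melatonin libraries lay below all controls (-1.21 ± 0.14), as the choice of the largest falls required. Of 30 tested BMP ligands, receptors and targets 7 rose and 1 fell, and the 3 that passed against S3 were ID1, ID2 and ID3. The rises were 4 without control replicate 2 or melatonin replicate 1.

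Growth factor and early response genes moved in both directions. Of 30 ERK feedback and target genes 8 fell and 4 rose, with 1 rise left without control replicate 1 or 2 or any of the melatonin libraries. DUSP6, the phosphatase that inactivates ERK, was at 47.3 to 53 CPM in control, 56.2 in S3 and 71.2 to 77.1 in melatonin (0.58 ± 0.07). Of its exon bases 39.4% are shared with AC024909.2 on the opposite strand, and reads there are ambiguous in unstranded counts and stayed out. The targets FOSL1, ETV4 (-0.70 ± 0.10) and PHLDA1 (-0.38 ± 0.06) fell. DUSP6 and these targets, all 4, passed against S3 as well. Of 25 immediate early factors 7 fell and 2 rose, the rises being NR4A2 and NR4A3. KLF6 was at 147 to 169 CPM in control, 156 in S3 and 102 to 106 in melatonin (-0.61 ± 0.06). The falls were 4 without control replicate 2 or melatonin replicate 2. Of 29 tested EGFR family and ligand genes 5 fell and 4 rose (8 falls without S3, 2 rises without control replicate 1), and of 30 insulin, PI3K and FOXO genes 6 rose and 3 fell. SREBF1, the lipid synthesis regulator, was at 577 to 597 CPM in control, 607 in S3 and 391 to 404 in melatonin (-0.56 ± 0.07, edgeR adjusted p = 1.2e-05, and 1.4e-04 against S3), although 4 of 22 tested fatty acid synthesis genes fell and 1 rose, and 4 of 27 cholesterol genes fell and 2 rose. TCF7 (-0.63 ± 0.08), LEF1 (-0.45 ± 0.10) and the secreted Wnt inhibitor NOTUM (-0.78 ± 0.13) were 3 of the 4 falls among 36 Wnt genes, a list with 2 rises.

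Few genes of xenobiotic and retinoid handling were tested. Of 10 tested AhR pathway genes 4 fell and 1 rose, and all 4 falls passed against S3. The rise was that of NQO1, a quinone reductase and a known target of both AhR and NRF2, at 242 to 250 CPM in control, 260 in S3 and 278 to 285 in melatonin (0.19 ± 0.06), which did not pass against S3 (edgeR adjusted p = 0.46). The median over the list was 0.01. Beside CYP1A1 the falls were those of CYP1B1, at 11.2 to 11.7 CPM in control, 13.2 in S3 and 7.80 to 8.83 in melatonin (-0.47 ± 0.12), TIPARP, at 68.1 to 78.6 CPM in control, 87.6 in S3 and 51.6 to 59.6 in melatonin (-0.44 ± 0.08), and SLC7A5, which is also counted among the transporters. Of 12 tested retinoid handling genes 5 fell and 0 rose. DHRS3, a retinal reductase, was at 15.3 to 18.5 CPM in control, 16.2 in S3 and 9.45 to 11 in melatonin (-0.70 ± 0.11), and STRA6 and LRAT passed against S3 too. The falls were 3 without melatonin replicate 3. Of 35 tested NRF2 and glutathione genes 8 rose and 3 fell, none against S3, and the rises were 1 to 5 when any 1 of the 6 libraries was left out. FTL, the ferritin light chain, was at 955 to 1059 CPM in control, 1224 in S3 and 1382 to 1589 in melatonin (0.57 ± 0.07; edgeR adjusted p = 0.054 against S3).

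No tested clock gene passed both contrasts. Of 24 tested circadian genes 5 fell (20.8%, against 13.9% of protein-coding genes) and 1 rose (4.17%, against 11.3%) against control. Against S3 as well 0 passed (edgeR), where 3.91% of protein-coding genes were lower and 1.87% higher. NPAS2, a paralogue of CLOCK, was at 18.8 to 21.5 CPM in control, 25.7 in S3 and 27.6 to 29.5 in melatonin (0.47 ± 0.08). PER3 was at 12.7 to 13.8 CPM in control, 11 in S3 and 9.71 to 9.84 in melatonin (-0.46 ± 0.09). CLOCK was at 38.6 to 44.4 CPM in control and 39.0 to 41.6 in melatonin (-0.01 ± 0.13), and NR1D1 was not called. The falls were 2 without control replicate 1 and 3 without control replicate 2 or melatonin replicate 1. Of 6 tested genes of melatonin receptors and metabolism CALM3 alone was called, and lower (-0.26 ± 0.08), a call lost without control replicate 1 or 2 or melatonin replicate 1 or 3.

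Glycolysis breaks glucose down to pyruvate. Of 29 tested glycolysis genes 11 fell and 1 rose, 4 falls also against S3, and 6 fell without control replicate 1. PGAM1, phosphoglycerate mutase, was at 320 to 335 CPM in control, 306 in S3 and 240 to 255 in melatonin (-0.43 ± 0.07). Of 29 TCA cycle genes 8 fell and 0 rose, and of 73 nuclear-encoded respiratory chain genes 8 fell and 7 rose, shares of 11% and 9.59% near the background, with 0 against S3 in either list. The TCA falls were 4 or 5 without control replicate 2 or 3 or melatonin replicate 2 and 13 without S3, and the respiratory chain rises were 2 to 4 without control replicate 1 or 2 or any of the melatonin libraries, its falls 5 without control replicate 2. Of 25 hypoxia-inducible genes 8 fell and 3 rose, with 4 falls also against S3 and 5 falls left without control replicate 1 or 2. VEGFA was at 112, 94.0 and 78.3 CPM in control, 96.8 in S3 and 63.7, 77.4 and 62.3 in melatonin (-0.48 ± 0.11).

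Immune and death genes were called in both directions. Of the NF-kB genes 20% were lower and 4% higher, against 13.9% and 11.3% of protein-coding genes. Of the apoptosis regulators 5.56% were lower and 8.33% higher. Of 30 tested interferon-stimulated genes 6 rose (20%) and 2 fell, and of 25 NF-kB genes 5 fell and 1 rose (8 falls without S3). Of 21 antigen presentation genes 4 rose (19%, against 11.3% of protein-coding genes) and 0 fell (2 rises without control replicate 2 or melatonin replicate 2 or 3), and 3 passed against S3 (14.3%, against 1.87%), among them HLA-E, at 66.0 to 67.6 CPM in control, 64.1 in S3 and 80.6 to 86.4 in melatonin (0.32 ± 0.06). Of 36 apoptosis regulators 3 rose and 2 fell. The larger fall was that of BIRC5 (survivin), which also belongs to the mitotic passenger complex, at 112 to 118 CPM in control, 91.9 in S3 and 62.5 to 67.1 in melatonin (-0.82 ± 0.07).

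Protein folding and mitochondrial lists held more falls than rises. Of 36 tested cytosolic chaperone genes 12 fell (33.3%) and 1 rose, HSP90AA1 being the 1 that passed against S3. Of 43 tested genes of mitochondrial import and the mitochondrial ribosome 11 fell (25.6%) and 0 rose, none against S3 (edgeR). TIMM13, a chaperone for proteins that cross the space between the mitochondrial membranes, was at 61.3 to 70.7 CPM in control, 52.2 in S3 and 44.2 to 46.2 in melatonin (-0.53 ± 0.09). S3 lay between the groups. Those falls were 7 without control replicate 2. Of 39 proteasome genes 7 fell and 2 rose, with 4 falls without control replicate 2 or melatonin replicate 1 or 2 and 11 without S3.

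A last set of lists held calls in both directions. Their shares lower ran from 4.17% (Notch) to 20% (YAP and TEAD targets), against 13.9% of protein-coding genes. Their shares higher ran from 4.17% (Notch) to 18.8% (metallothionein and zinc transport), against 11.3%. Of 31 tested nuclear receptor genes 6 fell and 4 rose, and PPARA, NR4A2 and NR4A3 rose against S3 too. PPARA, a receptor for fatty acids, was at 27.3 to 29.9 CPM in control, 31.9 in S3 and 40.0 to 44.3 in melatonin (0.53 ± 0.08). Of 45 cilium and axoneme genes 6 rose and 2 fell, and of 25 fatty acid oxidation genes 4 fell and 3 rose. Of 25 YAP and TEAD targets 5 fell and 4 rose, of 16 metallothionein and zinc transport genes 3 rose and 1 fell, of 13 pentose phosphate and NADPH genes 2 rose and 2 fell, and of 24 Notch genes 1 rose and 1 fell. With any 1 of the 6 libraries or S3 left out the falls among nuclear receptors were 0 to 7, the rises among cilium genes 4 to 8, the falls among fatty acid oxidation genes 2 to 4, and the rises among YAP and TEAD targets 1 to 4 and among metallothionein and zinc genes 1 to 4. The falls were then 3 to 6 among YAP and TEAD targets, 0 to 4 among pentose phosphate genes, 1 to 3 among Notch and among cilium genes and 0 to 2 among metallothionein and zinc genes.

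By symbol, the families of 10 or more tested members with the highest share of falls after CENP were the ribonucleoproteins (HNRNP, 13 of 22), the tubulins (TUB, 10 of 19) and the nucleoporins (NUP, 11 of 21). The small nuclear ribonucleoproteins (12 of 24), the Fanconi genes (5 of 10) and the DNA polymerases (10 of 20) followed at 50% each. Of the 13 HNRNP falls 2 passed against S3, compared with 9 of the 15 CENP falls. The highest shares of rises were those of the clustered histones, the cathepsins (CTS, 5 of 12), the glutathione transferases (GST, 4 of 11), and the Integrator subunits and phosphodiesterases (5 of 14 each). In that order the medians were 0.34, 0.23, 0.13, 0.07 and 0.11 against control. Against S3 they were 0.43, 0.19, 0.17, 0.17 and -0.03. Among the cathepsins 2 fell, and 1 fell in each of the Integrator and phosphodiesterase families. Of the vacuolar sorting genes (VPS) 10 of 35 rose and 0 fell.

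On chromosome 19, 189 of 994 tested protein-coding genes (19%) were lower and 49 (4.93%) higher. Without its zinc finger (ZNF) genes 178 of 765 (23.3%) were lower, and of the 229 ZNF genes 11 were lower and 13 higher. The median over the chromosome was -0.07 against control and 0.02 against S3, with S3 itself at -0.11 against control. Without its ZNF genes the medians were -0.12 against control, 0.02 against S3 and -0.14 for S3 against control. S3 thus shared the lower median of this chromosome.

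For some called genes S3 lay at the melatonin level. EIF3CL was at 2.01 to 2.6 CPM in control, 13.7 in S3 and 12.5 to 14.3 in melatonin, a log2 fold change of 2.56 ± 0.49 against control and -0.03 against S3. It is a near-identical copy of EIF3C, so its counts are uncertain. MT-ND6, on the light strand of mitochondrial DNA, was at 438, 287 and 263 CPM in control, 121 in S3 and 99.6, 138 and 110 in melatonin. MT-ATP8, which overlaps MT-ATP6, was at 8.41 to 11 CPM in control, 2.41 in S3 and 1.95 to 2.18 in melatonin. CCDC34 and TRIB3, a pseudokinase induced by ATF4, were at 14 and 15.4 CPM in S3, against 13.4 to 14.3 and 14.8 to 17.8 in melatonin. Of 436 tested processed pseudogenes 158 were higher and 13 lower than control, and 0 were called against both control and S3 (edgeR), with a median of 0.44 against control and -0.03 against S3. For these genes melatonin libraries and S3 could not be separated.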

How the data were processed

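RNA-seq of 9 H1299 libraries was read on the BGISEQ-500 as paired 150-base reads, per the labels' protocols. The authors deposited a table of raw counts per gene and library, made with STAR 2.7.9a on GRCh38, per the submitters' processing notes. The unstranded column was used. All 58721 gene IDs matched GENCODE release 29, which was inferred by this match. Rows for unmapped, multimapping, ambiguous (9.77% to 10.6%) and no-feature reads stayed out of library sizes and tests.

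Counts were tested with edgeR 4.0.16 (R 4.3.3; TMM, filterByExpr, quasi-likelihood test, two-sided, Benjamini-Hochberg over 16441 genes) on all 9 libraries with a term per group. For the contrast with the library labelled siCLOCK replicate 3, that library had a term of its own. CPM values are TMM-scaled and do not correct for gene length, so rankings of genes by level or by CPM change also reflect length. DESeq2 1.42.0 was an alternative. The scripts were tested on simulated data.

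The comparison, the gene lists and the motifs were chosen with earlier results of these data known. Genes named are the 12 largest rises and falls among protein-coding genes with a mean of at least 5 CPM that passed both contrasts without overlap, the 5 largest CPM changes each way, 5 called genes that moved with siCLOCK replicate 3, and up to 6 called genes per list. CCND1, CDKN1A, TFEB and MYC were added after their values were seen. Not all genes that the rule names are reported here, and 1 list is not. Promoters are from RefSeq (GRCh38.p14), matched by symbol for 10384 of 13057 tested protein-coding symbols.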

Additional observations from a re-analysis of the deposited data

Results flagged for a closer look

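Measures outside the gene tests separated the melatonin libraries from the controls. The share of unmapped reads was at least 2.30% in the melatonin libraries and at most 1.36% in the controls. The share of gene counts in processed pseudogenes was at least 0.317% against at most 0.172%, and the share of reads outside annotated genes was at least 5.58% against at most 5.48%. The library labelled siCLOCK replicate 3 had 2.24%, 0.314% and 5.89%. The part of these shares in the gene results was not tested beyond the contrast with that library.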

How the results depend on the processing

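Of the main counts, "Genes higher in melatonin than in control" stood at 1803 and "Genes lower in melatonin than in control" at 1987. A term for the libraries over 1.8% unmapped reads, which rests on S3, left 283 higher and 487 lower, keeping 12.8% and 21.6% of the calls and moving the share of calls that were higher from 47.6% to 36.8%. Of 380 named results 216 lost their call under it with the sign kept, 8 reversed and 156 held. At an adjusted p under 0.01 the counts were 863 and 1137, and 75 higher and 296 lower than both control and S3. A strand-specific column gave 131 higher than both. Leaving out 1 control or melatonin library gave 1061 to 1538 higher and 1372 to 1795 lower, and 98 to 275 higher and 358 to 557 lower than both; without S3, 2071 and 2439 were called. The counts stayed within 1.5 times of the main ones with DESeq2, RLE or upper-quartile scaling, other filters, protein-coding genes only and the 6 libraries alone. Replicate numbers did not pair the samples (r of -0.03, 0.05 and -0.07 between same-numbered deviations), and a replicate block gave 1658 higher and 1875 lower. Log2 fold changes reversed sign with the unmapped term for EIF3CL (-0.45), MT-ND6 (0.0710), CCDC34 (0.0083), CRY1 (0.0231), TRAF2 (0.0190), PSMB3 (0.201), ATP5F1D (0.0373) and DVL1 (0.107), and with the strand-specific column for RPS27A (-0.0486). The value for "CLOCK, log2 fold change of melatonin against control", negative but near 0 as reported, was -0.53 with the unmapped term, 0.010007 with that column and between -0.0431 and 0.0614 when 1 library was left out, positive without control replicate 3 and without melatonin replicate 3. The unmapped term subtracts the difference between S3 and siCLOCK replicates 1 and 2, whose CLOCK counts were 727, 387 and 596. The cause was not tested.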
